A study of Mus musculus with 8 samples.

Results

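The Mu class of glutathione S-transferases was examined in the livers of male C57Bl6J mice on alcohol diet and of their pair-fed controls. Its 7 mouse genes are *Gstm1* to *Gstm7*. Every probe-set that the array annotation names with one of these symbols was taken, which gave 7 of the 23332 probe-sets on the array. Of these, 6 carry the symbol of a single gene (*Gstm1*, *Gstm2*, *Gstm3*, *Gstm4*, *Gstm5* and *Gstm7*) and 1 is shared by *Gstm6* and *Gstm3*. *Gstm6* has no probe-set of its own, and by the annotation only the shared probe-set reads it. All 7 probe-sets passed the expression filter, and their lowest value in any liver, 6.20 on the log2 scale, lay above the lowest fourth-highest value that the filter kept, 5.56.

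The alcohol group (mice WA-811, WA-817, WA-833 and WA-836) received the Lieber-DeCarli liquid diet from 6 weeks of age, with 2.06% alcohol for 3 days, 4.18% for 4 days and 6.2% for a further 5 weeks, when alcohol made up 35% of calories. These contents are those of the labels, and the methods of the study give a slightly higher final content. The control group (mice WC-820, WC-824, WC-834 and WC-840) was pair-fed the calorie-matched liquid diet with maltose and dextrin for the same 6 weeks. Liver RNA of each of the 8 mice was hybridized to its own Affymetrix Mouse Exon 1.0 ST array, and the deposited values are log2 signals from RMA. The mice were wild type for *Dnmt1*, and the labels give neither a hybridization batch nor a pairing of individual mice.

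Glutathione S-transferases join the tripeptide glutathione to electrophilic compounds, which makes them more soluble and marks them for export from the cell. The Mu class enzymes are cytosolic dimers encoded by a tandem array of closely related genes. In rodent liver several of them are known to be inducible by drugs and by oxidants. Ethanol oxidation by the cytochrome *Cyp2e1* is known to generate reactive oxygen and lipid aldehydes, which are among the substrates of glutathione S-transferases.

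In the RefSeq annotation of GRCm38.p6 the 7 genes lie side by side on chromosome 3 over 149 kb. *Gstm5* comes first, at chr3:107895854-107898685 on the plus strand. The others are on the minus strand in the order *Gstm7* (chr3:107926334-107931877), *Gstm6* (chr3:107938847-107953641), *Gstm3* (chr3:107963696-107969174), *Gstm2* (chr3:107981702-107986420), *Gstm1* (chr3:108012250-108017973) and *Gstm4* (chr3:108030571-108045179). Sequences before a RefSeq start of each of the 3 genes with the largest rises are shown here because these genes moved together. The genes are those named by the array annotation, and whether the names *Gstm1* and *Gstm2* are exchanged was not tested. The sequences are the 250 bases before the first listed start, read 5′ to 3′ on the minus strand of GRCm38.p6. Their positions are chr3:107969175-107969424 for *Gstm3*, chr3:108044860-108045109 for *Gstm4* and chr3:108017974-108018223 for *Gstm1*. The *Gstm4* stretch lies inside the annotated span of that gene, whose outer end at 108045179 was not among the listed starts. Capitals mark GCGTG, the core of the xenobiotic response element bound by the aryl hydrocarbon receptor.
Gstm3: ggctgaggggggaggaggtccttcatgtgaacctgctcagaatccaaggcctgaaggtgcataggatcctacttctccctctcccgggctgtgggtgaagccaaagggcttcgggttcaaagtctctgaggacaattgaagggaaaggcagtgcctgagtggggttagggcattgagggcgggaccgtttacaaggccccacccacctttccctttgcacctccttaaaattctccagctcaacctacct
Gstm4: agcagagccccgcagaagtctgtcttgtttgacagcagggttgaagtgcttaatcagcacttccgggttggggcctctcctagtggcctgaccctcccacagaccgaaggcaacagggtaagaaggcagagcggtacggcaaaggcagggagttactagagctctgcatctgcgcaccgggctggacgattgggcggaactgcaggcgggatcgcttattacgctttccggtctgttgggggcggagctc
Gstm1: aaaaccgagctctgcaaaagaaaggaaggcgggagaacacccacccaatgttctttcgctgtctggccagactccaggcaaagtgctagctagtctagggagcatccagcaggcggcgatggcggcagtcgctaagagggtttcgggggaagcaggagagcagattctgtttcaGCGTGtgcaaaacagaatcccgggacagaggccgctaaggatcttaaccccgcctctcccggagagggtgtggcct

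Each listed RefSeq start of the 7 genes was searched on both strands, from 250 bases before it to 50 bases after it. The outer ends of *Gstm4*, *Gstm6* and *Gstm7* are not among these starts, so the sequence before those ends was not searched in full. The motifs were GCGTG and the antioxidant response element TGACNNNGC, which is bound by NRF2 with a small Maf protein. The antioxidant response element was found in 2 of the 12 windows of the 7 genes and in 12.4% of all 32851 windows of the same length in the RefSeq table. Neither match lay in a searched window of *Gstm3*, *Gstm4* or *Gstm1*. One stood 42 bases before the start of *Gstm5* (chr3:107895797-107895835, plus strand) and the other 129 bases before the second start of *Gstm7* (chr3:107931720-107931758, minus strand). Both are shown with 15 bases on each side and with the element in capitals.
Gstm5: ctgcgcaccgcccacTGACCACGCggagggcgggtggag
Gstm7: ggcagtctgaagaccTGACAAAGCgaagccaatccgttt
The GCGTG core was present in windows of *Gstm1* and *Gstm5* and in 32.4% of all windows. In *Gstm5* one copy, read on the opposite strand, overlaps the antioxidant response element. These matches describe the letters of the windows and are not evidence of binding.

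Signals of 4 Mu class probe-sets were higher in mice fed alcohol diet, 1 was lower and 2 did not pass the test (limma, Benjamini-Hochberg adjusted p under 0.05 over all probe-sets tested). *Gstm3*, *Gstm4* and *Gstm1* rose 5.36-fold, 3.67-fold and 2.40-fold. *Gstm5* rose 1.57-fold. The probe-set shared by *Gstm6* and *Gstm3* was 1.58-fold lower in mice fed alcohol diet. Of all probe-sets tested, 10.2% were higher and 5.98% lower by the same rule. At the stricter thresholds of the study (unadjusted P of at most 0.0001 and at least 1.5-fold), 3 Mu class probe-sets were higher and 1 was lower, against 1.01% higher and 0.757% lower among all tested. The median log2 change was 0.65 over the 7 Mu class probe-sets and 0.05 over all probe-sets tested.

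**Figure D1:**
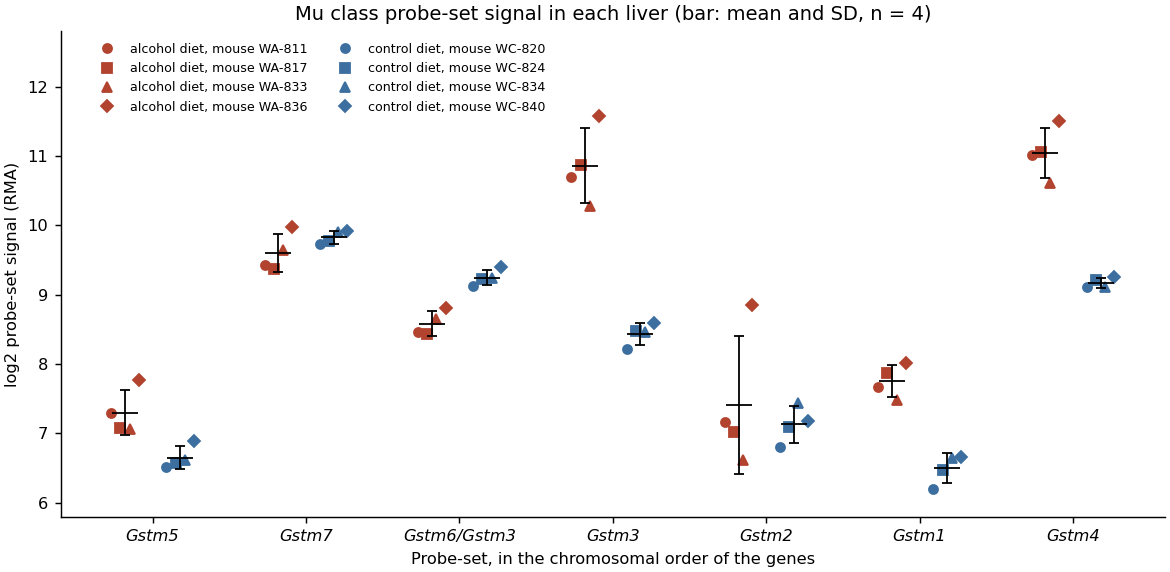
Log2 RMA signal of the 7 Mu class probe-sets (vertical axis) in each of the 4 livers on alcohol diet (red) and the 4 on control diet (blue), with genes in chromosomal order; black bars give the mean and SD. The diets do not overlap for *Gstm5*, *Gstm6/Gstm3*, *Gstm3*, *Gstm1* and *Gstm4*, and they overlap for *Gstm7* and *Gstm2*.

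*Gstm3*, an inducible Mu class gene of mouse liver, had the largest rise of the family. Its log2 signal was 10.71, 10.87, 10.29 and 11.58 in mice WA-811, WA-817, WA-833 and WA-836 on alcohol diet, against 8.22, 8.48, 8.46 and 8.60 in mice WC-820, WC-824, WC-834 and WC-840 on control diet. Every liver of the alcohol group lay above every liver of the control group. The mean was 10.86 ± 0.54 on alcohol diet and 8.44 ± 0.16 on control diet (SD, n = 4 mice each). This gave a log2 change of 2.42 (SE 0.23, 95% interval 1.90 to 2.95, limma adjusted p = 6.4e-04). Within the alcohol group the 4 mice stood 4.81-fold, 5.41-fold, 3.60-fold and 8.82-fold above the control mean.

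*Gstm4* followed. Its log2 signal was 11.01, 11.06, 10.61 and 11.50 in the 4 livers on alcohol diet, against 9.12, 9.21, 9.11 and 9.25 in the 4 livers on control diet, in the same order of mice. The control livers lay close together, and the lowest liver on alcohol diet was still above all of them. The difference was 1.87 on the log2 scale (SE 0.16, limma adjusted p = 3.6e-04).

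*Gstm1*, known as a major Mu class enzyme of mouse liver, had log2 signals of 7.68, 7.87, 7.48 and 8.01 on alcohol diet, against 6.20, 6.48, 6.65 and 6.67 on control diet. The groups did not overlap, and the log2 change was 1.26 (SE 0.14, limma adjusted p = 0.00127). The rises of *Gstm3*, *Gstm4* and *Gstm1* kept their direction and their side of the threshold with each of the 8 mice left out in turn, when the log2 change ranged from 2.18 to 2.61, from 1.72 to 2.02 and from 1.16 to 1.36.

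*Gstm5*, the mouse counterpart of human GSTM3 and known from brain and testis, had a smaller rise. Its log2 signal was 7.30, 7.08, 7.06 and 7.77 on alcohol diet, against 6.52, 6.57, 6.61 and 6.90 on control diet. The groups did not overlap, but the highest control liver and the lowest liver on alcohol diet were only a small step apart. The log2 change was 0.65 (SE 0.16, 95% interval 0.29 to 1.01, limma adjusted p = 0.0244), and it did not reach the stricter thresholds of the study. The call was lost without alcohol mouse WA-811 (limma adjusted p = 0.0502) and without control mouse WC-820, WC-824 or WC-834 (limma adjusted p = 0.0595, 0.0660 and 0.0637). It was also lost when every probe-set was tested (limma adjusted p = 0.0840) or without moderation of the variance (adjusted p = 0.0748).

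*Gstm2*, whose human counterpart is known to detoxify oxidized catecholamines, did not pass the test. Its log2 signal was 7.16, 7.02, 6.61 and 8.85 on alcohol diet, against 6.80, 7.09, 7.44 and 7.18 on control diet. Mouse WA-836 alone was high, and the other 3 livers on alcohol diet lay within or below the control range. The log2 change was 0.28 (SE 0.42, 95% interval -0.66 to 1.22, limma adjusted p = 0.691). Without mouse WA-836 it was -0.20 (limma adjusted p = 0.475). The interval is wide and reaches past a 2-fold rise.

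*Gstm7* also missed the threshold. Its log2 signal was 9.43, 9.37, 9.64 and 9.98 on alcohol diet, against 9.73, 9.77, 9.90 and 9.91 on control diet. In the alcohol group 3 livers lay below all controls, and mouse WA-836 lay above all of them. The log2 change was -0.22 (SE 0.13, 95% interval -0.52 to 0.07, limma adjusted p = 0.273). Without mouse WA-836 it was -0.35 and passed the threshold (limma adjusted p = 0.0444), which brought the Mu class probe-sets called lower to 2.

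The probe-set shared by *Gstm6* and *Gstm3* moved against the probe-set of *Gstm3* alone. Its log2 signal was 8.46, 8.43, 8.65 and 8.81 on alcohol diet, against 9.13, 9.23, 9.24 and 9.40 on control diet. All livers on alcohol diet were below all livers on control diet. The log2 change was -0.66 (SE 0.10, limma adjusted p = 0.00467), and it stayed between -0.74 and -0.61 with each mouse left out. *Gstm6* and *Gstm3* cannot be told apart in this probe-set, so the fall was assigned to neither gene. Among all probe-sets tested, 15.5% had all livers on alcohol diet above all livers on control diet and 8.14% had them all below. Among the 7 Mu class probe-sets 4 were of the first kind and 1 of the second.

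The names of these probe-sets carry a limit. Over the array, probe-set numbers run in chromosome order for 99.0% of 11713 consecutive pairs of genes on the same strand, and for 266 of 270 pairs on the minus strand of chromosome 3. The probe-set numbers of *Gstm1* (6908078) and *Gstm2* (6908079) are among the exceptions, since *Gstm2* lies between *Gstm3* (6908077) and *Gstm1* in the genome. The probe-set named *Gstm1* also had the lowest control mean of the Mu class probe-sets, 6.50, although levels of different probe-sets are not directly comparable. The probe sequences were not analysed here. Whether the names *Gstm1* and *Gstm2* are exchanged, or whether probes of one set also match another Mu class transcript, was not tested. The shared probe-set (6908075) is numbered between *Gstm7* (6908073) and *Gstm3* (6908077), where *Gstm6* lies in the genome. Which transcript the shared probe-set reads was not tested. The values above are given under the names of the array annotation.

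**Figure D2:**
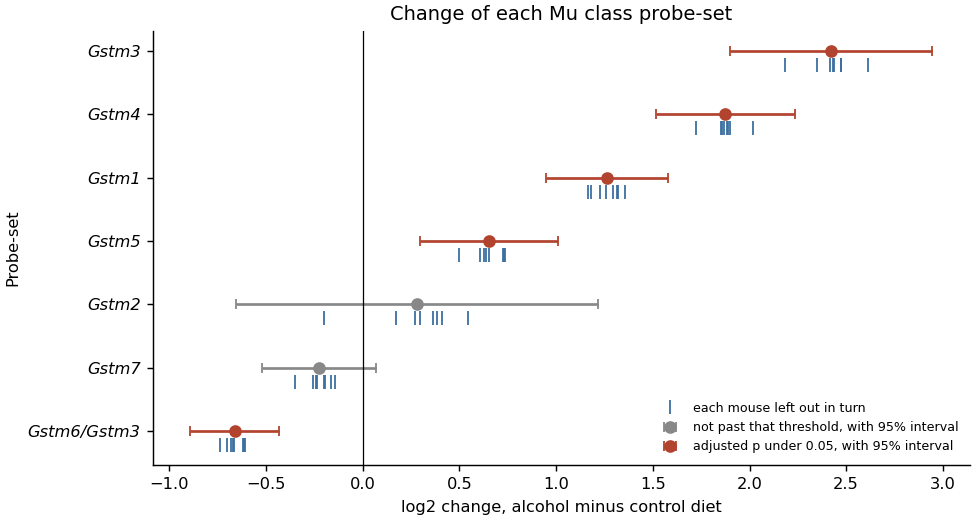
Log2 change (alcohol minus control, horizontal axis) of each Mu class probe-set with its 95% interval, red where the adjusted p was under 0.05 and grey where it was not; blue ticks show the change with each of the 8 mice left out. The changes run from 2.42 for *Gstm3* to -0.66 for the shared probe-set, and the ticks of *Gstm2* fall on both sides of 0.

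Paralogs were then compared with each other by their change and not by their level, since different probe-sets differ in how brightly their probes hybridize. For each pair the difference between both probe-sets was taken within a mouse and compared between the diets by an exact two-sided permutation test of the size of the difference over the 8 mice. With 70 arrangements the smallest p is 0.0286. Of the 15 pairs among the 6 genes with their own probe-set, 12 reached this p, each with the 8 mice fully separated by diet. Their adjusted p was 0.0357 (Benjamini-Hochberg over the 15 pairs), a value set by how many pairs tied at the smallest p. The pairs share probe-sets, so the 12 are not independent results. Among single probe-sets tested, 15.5% had the alcohol group above the control group without overlap and 8.14% had it below. The share of separated pairs among all probe-sets was not taken. The change of *Gstm3* was larger than that of *Gstm4* by 0.55, than that of *Gstm5* by 1.77 and than that of *Gstm7* by 2.65 on the log2 scale (exact permutation p = 0.0286 each). The change of *Gstm4* was larger than that of *Gstm5* by 1.22 and than that of *Gstm7* by 2.10. *Gstm1* minus *Gstm3* was -1.16 and *Gstm1* minus *Gstm4* was -0.61, with the same p. Among these probe-sets the order *Gstm3*, *Gstm4*, *Gstm1* was thus separated at both steps. On control diet the log2 signal was 6.20 to 6.67 for *Gstm1*, against 8.22 to 8.60 for *Gstm3* and 9.11 to 9.25 for *Gstm4*. Whether the size of a change depends on the level of the probe-set was not tested. With each mouse left out, 10 of the 12 pairs passed every time. *Gstm1* minus *Gstm4* was lost without alcohol mouse WA-836 (exact permutation p = 0.0571), and *Gstm2* minus *Gstm4* without each of the 4 control mice (exact permutation p = 0.0571 each). *Gstm1* changed by 0.61 more than *Gstm5*, and *Gstm5* by 0.88 more than *Gstm7*, again with an exact permutation p of 0.0286.

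The 3 pairs that did not pass all involved *Gstm2*, the probe-set with the widest spread. *Gstm1* minus *Gstm2* was 0.98 (exact permutation p = 0.143, adjusted p = 0.165) and *Gstm2* minus *Gstm5* was -0.37 (exact permutation p = 0.343, adjusted p = 0.343). *Gstm2* minus *Gstm7* was 0.50 (exact permutation p = 0.257, adjusted p = 0.275). With each mouse left out these differences ranged from 0.81 to 1.38, from -0.70 to -0.18 and from 0.15 to 0.78. Without alcohol mouse WA-836 the first and the second of them passed, and without alcohol mouse WA-833 the third passed (exact permutation p = 0.0286 each). A p that misses the threshold does not show that these pairs responded alike. With the shared probe-set added after the data were seen, 17 of 21 pairs passed at an adjusted p of 0.0353. *Gstm3* minus the shared probe-set was 3.08, which is an 8.49-fold difference in response between both probe-sets that carry the name *Gstm3*.

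The livers of a group differed in a common direction across most of the family. Mouse WA-836 had the highest signal of its group for all 7 probe-sets, including those that were lower in the alcohol group. Mouse WA-833 had the lowest signal of the group for *Gstm1*, *Gstm2*, *Gstm3*, *Gstm4* and *Gstm5*. For *Gstm7* and the shared probe-set mouse WA-817 was the lowest, and mouse WA-833 came next below WA-836. In the control group mouse WC-840 was highest for 6 of the 7 probe-sets and mouse WC-820 lowest for 6. These probe-sets share arrays, so their common order within a group is 1 observation and not 7. The median of all probe-sets on the array of mouse WA-836 was 5.10, against 5.10 to 5.14 on the other arrays of the alcohol group. The cause of the order within either group was not tested.

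**Figure D3:**
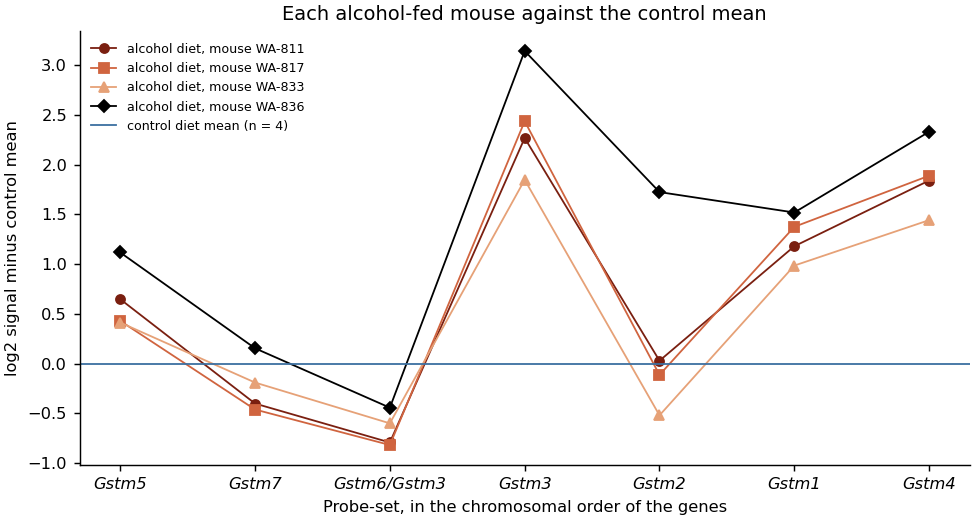
Log2 signal minus the mean of the 4 control livers (vertical axis) for each of the 4 mice on alcohol diet, with probe-sets in chromosomal order; the line at 0 is the control mean. Mouse WA-836 is the highest line throughout, and the 4 lines are closest together for the shared probe-set and widest apart for *Gstm2*.

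The 8 arrays were closely correlated but set slightly apart by diet. Their medians lay between 5.10 and 5.14 on alcohol diet and between 5.04 and 5.08 on control diet, with no overlap. Across probe-sets r was 0.977 to 0.982 between diets and higher, 0.983 to 0.987, within them. The liver label was checked with the hepatocyte markers with their own probe-set (*Alb*, *Ttr* and *Tat*), whose mean log2 signal was 13.12 to 13.31 on alcohol diet and 13.14 to 13.30 on control diet, 0 of the 3 passing the limma test (0 also at an unadjusted p under 0.05). Of 7 Kupffer cell markers 0 passed by limma (1, *Marco*, at an unadjusted p under 0.05), and their mean was 7.71 to 8.27 on alcohol diet and 7.72 to 8.35 on control diet. Of 5 sinusoidal endothelial markers *Lyve1* (log2 change 1.23) and *Clec4g* (0.47) rose, and the mean of the 5 was 8.63 to 9.06 on alcohol diet and 8.38 to 8.48 on control diet. Of 5 stellate markers tested *Lrat* rose by 0.54 and *Reln* fell by 0.34 (not called without control mouse WC-824 or WC-840), and the mean of the 6 on the array was 7.39 to 7.61 on alcohol diet and 7.44 to 7.53 on control diet. The erythroid gene *Alas2* fell by 2.07, with a log2 signal of 6.86 to 8.34 on alcohol diet and 9.59 to 9.82 on control diet. The neutrophil, T and B cell markers were all below the filter, and the 1 cholangiocyte marker tested, *Sox9*, did not pass. Beside these marker calls, 10.2% of all probe-sets tested were higher and 5.98% lower. The part of the endothelial and erythroid differences in the Mu class values was not tested. In whole liver, fewer cells of a type and less RNA per cell cannot be told apart.

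The rest of the pathway was read from lists of genes chosen for their role. The lists were chosen with earlier results of these data known, so their counts are a description and not a test. Beyond the Mu class, 22 glutathione S-transferases were listed, 15 had a probe-set of their own and 11 passed the filter. Of these 11, 5 rose, 0 fell by limma (1, *Gstp3*, at an unadjusted p under 0.05) and 6 did not pass, and their median log2 change was 0.21. Among all probe-sets tested 10.2% were higher and 5.98% lower. *Gsta4*, the alpha class enzyme that conjugates 4-hydroxynonenal from lipid peroxidation, had log2 signals of 11.25, 11.72, 11.16 and 11.59 on alcohol diet, against 9.99, 10.26, 9.89 and 10.10 on control diet. The groups did not overlap, and the log2 change was 1.37 (limma adjusted p = 7.7e-04). The microsomal *Mgst3* rose by 1.48 and the theta class *Gstt3* by 1.46 (limma adjusted p = 0.00598 and 0.0061). *Gsto1* of the omega class rose by 0.49 and *Gstt1* by 0.41 (limma adjusted p = 0.00506 and 0.0136). *Gsta3* had a log2 change of 0.21, the pi class *Gstp3* of -0.30 and *Mgst1* of -0.08, and none of them passed. At the stricter thresholds of the study 1 of the 11 tested, *Gsta4*, was called, against 1.01% higher among all tested.

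Of 11 genes of glutathione supply, 8 were tested, of which 3 rose, 1 fell and 4 did not pass. For this count and that of export below, the share among all probe-sets tested was 10.2% higher and 5.98% lower. *Gclc*, the catalytic subunit of the rate-limiting enzyme of glutathione synthesis, had log2 signals of 11.21, 11.61, 11.48 and 11.71 on alcohol diet, against 10.80, 10.63, 10.33 and 10.44 on control diet (log2 change 0.95, limma adjusted p = 0.00348). *Gss*, which completes the synthesis, rose by 0.81 and *Gsr*, which regenerates glutathione from its disulfide, by 0.62 (limma adjusted p = 0.00332 and 0.00835). *Cbs*, which starts the transfer of sulfur from homocysteine to cysteine, fell by 0.33 (limma adjusted p = 0.041), a call that was lost with any 1 of the 8 mice left out except alcohol mouse WA-817. Of 18 genes for export of conjugates and their processing to mercapturates 10 were tested, of which 3 rose, 0 fell by limma (1, *Nat8*, at an unadjusted p under 0.05) and 7 did not pass. The conjugate exporters *Abcc3* and *Abcc2* rose by 1.15 and 0.54 (limma adjusted p = 5.2e-04 and 0.00652) and *Ggt6*, of the gamma-glutamyltransferase family, by 0.56 (limma adjusted p = 0.00729).

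Of 18 listed regulators that are known to act on liver glutathione S-transferase genes, 17 were tested, of which 3 rose, 2 fell and 12 did not pass. Among all probe-sets tested 10.2% were higher and 5.98% lower. Counts this small were not tested against these shares and are not read as a result about the regulators. *Nr1i3*, the xenobiotic receptor CAR, had log2 signals of 11.01, 11.02, 11.02 and 11.12 on alcohol diet, against 10.46, 10.38, 10.32 and 10.56 on control diet (log2 change 0.61, limma adjusted p = 0.00186). The small Maf gene *Maff* rose by 0.38 and *Nfe2l1*, a relative of NRF2, by 0.34 (limma adjusted p = 0.0216 and 0.0365). The lipid receptor *Ppara* fell by 0.60 and *Cebpa* by 0.38 (limma adjusted p = 0.00857 and 0.0325). The call of *Maff* was lost without alcohol mouse WA-811 or control mouse WC-820 or WC-824 (limma adjusted p = 0.0502, 0.0506 and 0.0571). That of *Nfe2l1* was lost without any 1 mouse other than WA-833 or WC-820 and that of *Cebpa* without any 1 mouse other than WA-833 or WC-834, while *Nr1i3* and *Ppara* passed with each of the 8 mice left out. The count of regulators that rose was 1 without alcohol mouse WA-811 or control mouse WC-824. The count that fell was 1 without alcohol mouse WA-811, WA-817 or WA-836 or control mouse WC-820, WC-824 or WC-840. *Nfe2l2*, which encodes NRF2, had log2 signals of 9.66, 9.46, 9.61 and 9.06 on alcohol diet, against 9.14, 9.32, 9.03 and 9.53 on control diet (log2 change 0.19, limma adjusted p = 0.428). Its groups overlapped, and mouse WA-836, the highest of its group for the Mu class, was the lowest for *Nfe2l2*. Its repressor *Keap1* had a log2 change of 0.17 and did not pass. Transcript levels of these factors do not measure their activity.

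**Figure D4:**
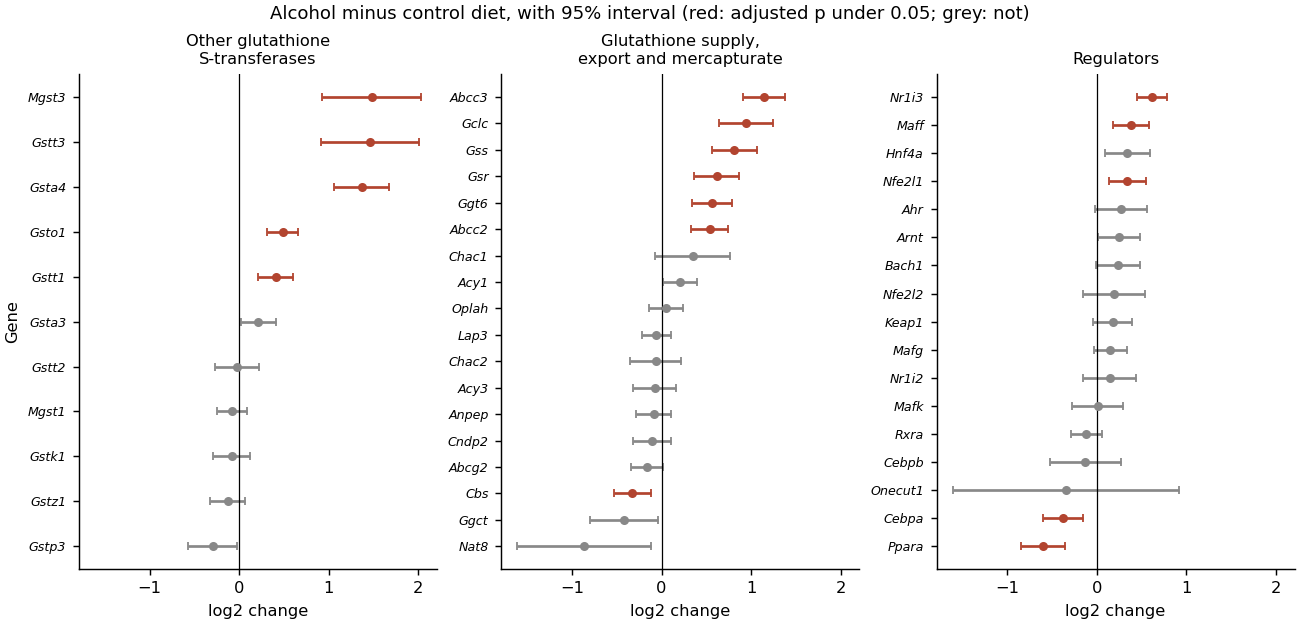
Log2 change (alcohol minus control, horizontal axes) with 95% interval for the tested genes of 3 lists: 11 other glutathione S-transferases, 18 genes of glutathione supply, export and mercapturate formation, and 17 regulators. Red marks an adjusted p under 0.05, which 5, 7 and 5 genes of the lists reached, and the intervals of *Onecut1* and *Nat8* are the widest of their panels.

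The genes on both sides of the cluster were read from the fit of all probe-sets, in which 2.09% of 23332 probe-sets were higher and 1.22% lower. Of 12 neighbours, 6 on each side, limma called 0 at the same threshold, 3 of them with an unadjusted p under 0.05, and their log2 changes lay between -0.13 and 0.41. On the *Gstm5* side these were *Slc6a17*, *Ubl4b*, *Ahcyl1*, *Csf1*, *Eps8l3* and the non-coding *4933431E20Rik*, which overlaps *Gstm5* and had a log2 change of 0.40 (limma adjusted p = 0.298). On the *Gstm4* side they were *Ampd2*, *Gnat2*, *Gnai3*, *Gpr61*, *Amigo1* and *Atxn7l2*. *Gnai3*, an inhibitory G protein subunit, had log2 signals of 9.59, 9.69, 9.72 and 9.66 on alcohol diet, against 9.51, 9.33, 9.24 and 9.12 on control diet. *Amigo1*, which encodes a neuronal adhesion protein, had 6.46, 6.58, 6.57 and 6.38 on alcohol diet, against 6.26, 6.19, 6.02 and 5.87 on control diet. Both pairs of groups were apart, as were those of *Ahcyl1* (9.77 to 9.94 on alcohol diet, 9.66 to 9.72 on control diet). Among all probe-sets past the filter 15.5% were apart with alcohol higher and 8.14% with alcohol lower. *Gnai3* and *Amigo1* passed in the fit restricted to probe-sets past the filter, where 5 of the 12 were tested (limma adjusted p = 0.0247 and 0.0224). That fit is the one used for the Mu class counts, and 10.2% of its probe-sets were higher and 5.98% lower. The log2 changes of *Gnai3* and *Amigo1*, 0.37 and 0.41, were smaller in size than those of all 5 Mu class probe-sets called.

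**Figure D5:**
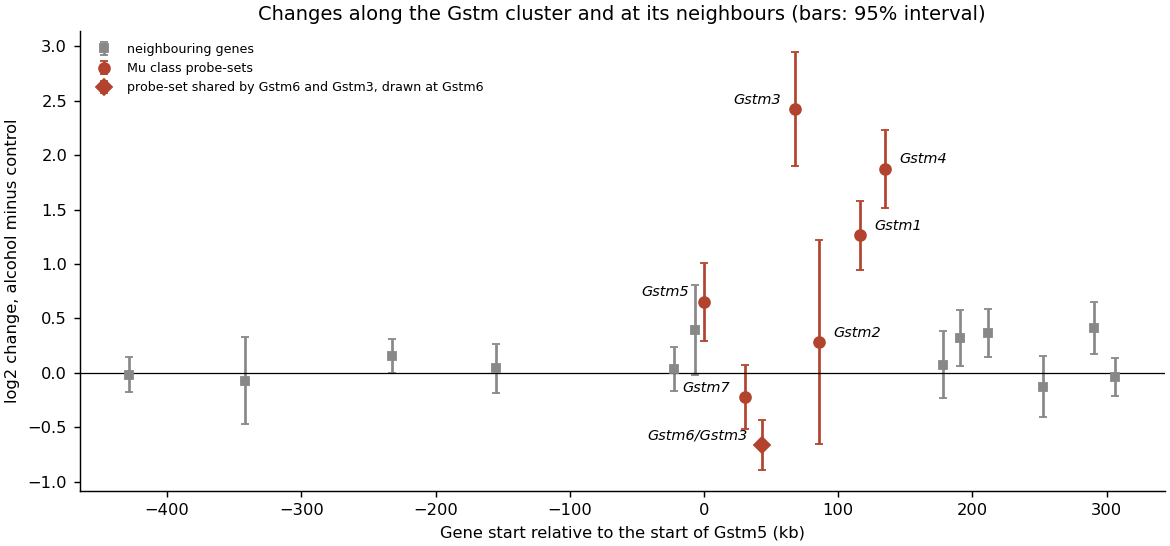
Log2 change (alcohol minus control, vertical axis) with 95% interval against the distance of each gene start from the start of *Gstm5* in kb, for the Mu class probe-sets (red) and the 12 neighbouring genes (grey). By the names of the array annotation, the changes above 1 belong to *Gstm3*, *Gstm1* and *Gstm4*, and *Gstm2* at 0.28 lies between *Gstm3* and *Gstm1*. Whether the names *Gstm1* and *Gstm2* are exchanged was not tested.

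The genes whose pattern was most like that of each raised member were found by Pearson's r over the 8 arrays among probe-sets past the filter, with other Mu class genes left out. All 8 points share the contrast of diets, so r is given also after the mean of each diet was removed. These genes were picked for the highest r of all those tested, so the size of r is not a test. For *Gstm3* they were *Slc18a1*, a vesicular monoamine transporter (r = 0.995, and 0.925 within diets), *Bckdk*, a kinase of branched-chain amino acid breakdown (0.993 and 0.896), and *Srxn1*, the antioxidant enzyme sulfiredoxin (0.991 and 0.974). *Srxn1* had log2 signals of 8.39, 8.65, 8.18 and 9.12 on alcohol diet, against 7.22, 7.44, 7.33 and 7.36 on control diet, with mice WA-836 and WA-833 at the top and the bottom of the alcohol group as for *Gstm3*. For *Gstm4* they were *Slc18a1* (0.997 and 0.949), *Tex2* (0.996 and 0.930) and *Tmem241* (0.993 and 0.903). For *Gstm1* they were *Alpl*, the tissue non-specific alkaline phosphatase (0.991 and 0.893), *Bckdk* (0.985 and 0.812) and *Celsr1* (0.982 and 0.786). For *Gstm5* they were *Smo*, the Hedgehog signal transducer (0.991 and 0.974), *Extl1* (0.977 and 0.947) and the chemokine *Ccl9* (0.973 and 0.940). On control diet *Slc18a1* lay at 5.58 to 5.64, close to the lowest fourth-highest value that the filter kept, 5.56. *Extl1* lay at 5.38 to 5.76 on control diet, in part below that value.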

How the data were processed

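Liver RNA of 8 mice, 4 on each diet, was measured with 1 array a mouse. The deposited table holds log2 signals, for which the authors used RMA (background correction, normalization and summary over probes), which the labels credit to Affymetrix Expression Console without a version. RMA values carry no read depth, so the 4 mice a diet limit precision. Probe-sets were named through the array annotation and a gene was read at its single-symbol probe-set of highest mean. As in the methods, 10430 probe-sets were kept, here those whose fourth-highest value was largest. Diets were compared in R 4.3.3 with limma 3.58.1, a linear model with eBayes moderation (6 residual degrees of freedom) and Benjamini-Hochberg adjustment, which was tested on simulated data. Pairs were compared by exact permutation.

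The members and gene lists were chosen with earlier results of these data known. The text names every member, up to 4 genes of each list with the smallest adjusted p among those called and any that fell, 3 similar genes for each raised member with 1 symbol, and all neighbours. Other genes were named after their values were seen, among them *Gstt1*, *Nfe2l1*, *Nfe2l2*, *Keap1*, *Gsta3*, *Gstp3*, *Mgst1* and the markers. Alternatives were other filters, variance models, array weights, quantile normalization, median centring, the study's thresholds and leaving out each mouse. The added alternatives were the shared probe-set in the pairs, the pair tests without each mouse and the filtered fit for the neighbours. Promoters came from RefSeq (GRCm38.p6), matched by symbol for all 7 genes. Protein sequences were not used here.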

Additional observations from a re-analysis of the deposited data

Results flagged for a closer look

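Among 84 groups of 4 mice (42 named genes on each diet), 6 held a mouse whose gap to the next one took up more of the group's range than Dixon's critical value. Chance alone marks about 1 in 20 groups. None of the 6 was a Mu class probe-set, and the value of WA-836 of *Gstm2* did not reach the criterion. Mouse WA-836 was the highest of the alcohol group for *Gstt3* (log2 signal 10.64, next 9.76), for *Nr1i3* (11.12, next 11.02) and for *Ccl9* (10.62, next 10.22). Control mouse WC-820 was the lowest of its group for *Alpl* (6.32, next 6.67) and for *Slc6a17* (4.14, next 4.22) and the highest for *Ahcyl1* (9.73, next 9.67).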

How the results depend on the processing

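*Gstm3*, *Gstm4*, *Gstm1* and the shared probe-set kept their direction and their call under all 17 alternatives, with log2 changes outside the leave-one-out fits of 2.36 to 2.43, 1.81 to 1.89, 1.20 to 1.27 and -0.72 to -0.66. *Gstm5* lost its call under 7 of 17, including the study's thresholds. Leaving out each mouse gave 3 to 4 Mu class probe-sets higher and 1 to 2 lower. *Gstm2* turned to -0.20 without alcohol mouse WA-836, and *Csf1* and *Ampd2*, both near 0, also turned. *Csf1* was -0.0279 with quantile normalization and -0.0186 with median centring. With each mouse left out *Gstm2* ranged from -0.20 to 0.55, *Csf1* from -0.0111 to 0.10 and *Ampd2* from -0.0335 to 0.18. Median centring moved arrays by at most 0.10 relative to each other.

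The other transferases stayed at 5 higher and 0 lower with each mouse left out, but at the study's thresholds 1 was higher. For glutathione supply and export 3 were higher, against 6, and 0 lower, against 1. Of the regulators 1 was higher, against 3, and 0 lower, against 2. The 1 lower supply gene was 0 with no filter, no moderation or array weights and 0 to 1 with a mouse left out. Regulators were 1 higher and 1 lower with no filter, 1 lower with no moderation, and 1 to 3 higher and 1 to 2 lower with a mouse left out. Neighbours called were 2 with the expression filter, against 0. The cause was not tested, apart from the filter and the thresholds, which change how many probe-sets are adjusted for or the rule itself. The 12 pairs stayed 12 with quantile normalization. With each mouse left out 11 to 13 pairs passed the exact test (35 arrangements, added after the data were seen), and no difference changed sign. The planned reading of members removed by the filter had no result, since none was removed. Identity between the proteins was not run. No paired analysis was possible because the labels give no replicate numbers shared between the diets.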
